A study of Mus musculus with 9 samples.

Results

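The 10 genes described here, Gzma, Gzmb, Prf1, Nkg7, Ccl5, Klrd1, Ctsw, Cst7, Eomes and Tbx21, belong to the killing programme of cytotoxic lymphocytes and were taken by name from 18193 gene symbols on the array. They were followed in 3 XIST resistant thymus tumors, 3 thymus tumors and 3 normal thymus samples of the mouse, each on 1 Affymetrix Mouse430_2 array. XIST is a long noncoding RNA known for silencing an X chromosome, and the labels do not say how resistance to it was established. The labels used here give no strain, age or sex, no origin of the tumors, and no transgene or treatment. They also leave unsaid whether each array stands for a different mouse, so the p-values reflect array-to-array spread alone, part or all of which may be technical.

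Natural killer cells and cytotoxic T cells kill a target by releasing granules that hold perforin, which opens the target membrane, and granzymes, serine proteases that then act inside the target. The T-box factors Eomes and T-bet (Tbx21) switch on much of this programme, together with RUNX factors and cytokine signals through STAT proteins. The normal thymus mainly holds T cells in development, with few mature killer cells.

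Values are MAS5 signals, the array software's summary of the probes for 1 transcript, in arbitrary units. A probe set's signal can be compared between arrays but not with that of another probe set. Array medians were 13.9 to 25.8. Poly-A spike-in rows, which report on RNA added during labelling, were at 2.01 to 2.95 on resistant tumors 1 and 2, tumor 1 and normal thymus 1 (medians 23.6 to 25.8), and at 141 to 237 on the other 5 arrays (medians 13.9 to 17.8). Differences are on the log2 scale, with standard errors (SE, n = 3 arrays per group) and p-values from limma adjusted over 11671 genes, and a gene was called at an adjusted p under 0.05. Where 1 or more arrays of a group put a gene below their own median, its level there is only bounded, and any fold is given as "at least". Values in square brackets are the same difference within the arrays without and then with spike-in signal. Without spike-in signal, tumor 1 and normal thymus 1 alone stand for their groups. With it, resistant tumor 3 alone stands for its group. Most bracketed values thus rest on 1 array of a group, and none carries a test. Of the 4 T cell receptor complex genes tested, Cd3d, Cd3e and Cd3g were not called in any comparison, with Cd3e at 1103 to 1670 in resistant tumors, 1541 to 1679 in tumors and 1252 to 1490 in normal thymus. Cd247 was lower than in normal thymus by -2.04 ± 0.10 in resistant tumors and by -1.85 ± 0.10 in tumors, and of 15 T cell and thymocyte markers 11 were called lower in each tumor group. Among these 11, Cd8b1, Cd8a and Cd2 were at least 131.4-, 105.7- and 23.92-fold lower in resistant tumors than in normal thymus. In tumors they were at least 155.9-, 125.4- and 28.39-fold lower. The thymic epithelial markers Prss16 and Psmb11 were far lower in both tumor groups than in normal thymus.

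Of the 10 genes, 8 passed the filter on low signals, which asks for at least 3 of the 9 arrays at or above the array median. Against normal thymus 5 of these were called lower in resistant tumors, where 20.2% of all genes were, and 1 was called higher, where 23.1% were. In tumors against normal thymus 5 were lower and 1 higher, with 19.1% and 23.3% of all genes called in those directions. Nkg7, Klrd1 and Prf1 passed the filter through the 3 normal arrays alone, so these counts are a description of the 8 and not of the programme. All arrays lay below all normal arrays in 7 of the 8 genes for resistant tumors, against 25.7% of all genes, and in 6 of the 8 for tumors, against 25.2%. The gene called higher in both comparisons was Gzma. Both comparisons use the same normal arrays. Because whole tissue was profiled, fewer cytotoxic cells and less of each RNA per cell cannot be told apart.

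Gzma (chr13:113093824-113100981, RefSeq assembly GRCm38.p6) encodes granzyme A, a trypsin-like granule protease. Its signal was 2623, 2389 and 3532 in resistant tumors, 1276, 1147 and 2043 in tumors and 778, 695 and 732 in normal thymus. All 3 groups stood apart without overlap, resistant tumors highest and normal thymus lowest. Group means were 2848 ± 604 in resistant tumors, 1489 ± 484 in tumors and 735 ± 41.6 in normal thymus (SD, n = 3). Resistant tumors exceeded normal thymus by 1.94 ± 0.21 [1.69, 2.31], a 3.82-fold difference (limma adjusted p = 8.89e-05). In tumors the excess over normal thymus was 0.97 ± 0.21 [0.71, 1.10] (limma adjusted p = 0.00487), and this call was lost when the array medians were made equal (1.16, adjusted p = 0.0675, the highest of the alternatives, the lowest being 0.00035). Resistant tumors were 0.96 ± 0.21 [0.97, 1.21] above tumors, a difference that was not called (limma adjusted p = 0.144). With a block for the spike-in set it was 1.03 and was called (limma adjusted p = 0.0383, over the alternatives 0.0152 to 0.846).

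Gzmb (chr14:56258836-56262334) encodes granzyme B, which cleaves after aspartate and activates caspases in the target. Its signal was close to or under the array median on all 9 arrays, at 6.68, 13.3 and 17.3 in resistant tumors, 13, 3.89 and 7.38 in tumors and 24.2, 19.0 and 20.6 in normal thymus. Every tumor array of either kind lay below every normal array. Normal thymus 1 was also under its array median, so no fold is given. Tumors differed from normal thymus by -1.55 ± 0.56 [-0.90, -1.88] (limma adjusted p = 0.0471), a call kept in 9 of 18 alternatives (adjusted p 0.0179 to 0.149). It was lost without tumor 2 (adjusted p = 0.149), tumor 3 (0.0974), any 1 normal array (0.0932 to 0.113) or resistant tumor 2 (0.0676). Resistant tumors differed from normal thymus by -0.87 ± 0.56 [-1.36, -0.19], which was not called (limma adjusted p = 0.238). The 2 granzymes therefore stood on opposite sides of normal thymus in tumors.

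Prf1 (chr10:61297751-61304684) encodes perforin. The probe set that passed the filter read 11.9, 16.2 and 6.08 in resistant tumors, 12.6, 6.56 and 7.61 in tumors and 27.9, 21.1 and 17.2 in normal thymus. Both tumor groups lay below the normal arrays without overlap, but neither difference was called. Tumors differed from normal thymus by -1.34 ± 0.50 [-1.15, -1.43] (limma adjusted p = 0.0539), and 9 of 18 alternatives called it (adjusted p 0.00468 to 0.1495), among them the fit without tumor 1 (-1.62, adjusted p = 0.0343) and the fit without resistant tumor 3 (adjusted p = 0.0284). Resistant tumors differed by -1.04 ± 0.50 [-1.01, -1.65] (limma adjusted p = 0.122), and 3 of 18 alternatives called it. A second probe set for Prf1 never reached the array median. It read 19.8, 21.0 and 2.0 in resistant tumors, 19.0, 6.11 and 12.2 in tumors and 19.1, 13.4 and 15.8 in normal thymus, and the groups overlapped.

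**Figure D1:**
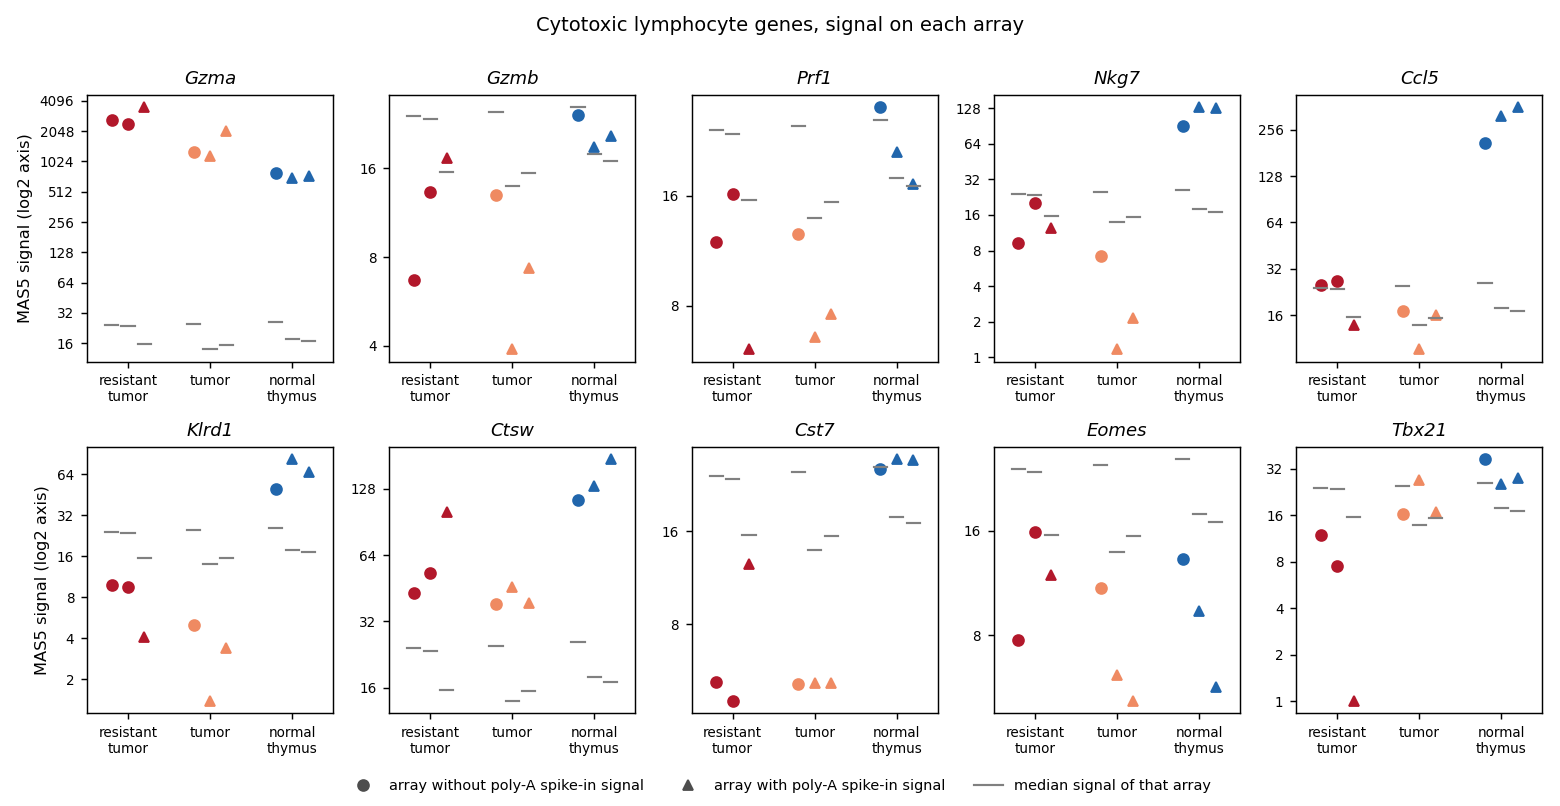
MAS5 signal (log2 axis) of each of the 10 genes on each of the 9 arrays, by group. Circles are arrays without and triangles arrays with poly-A spike-in signal, and grey bars mark that array's median. Gzma is highest in resistant tumors and lowest in normal thymus, while Nkg7, Ccl5, Klrd1, Ctsw and Cst7 are highest in normal thymus. Gzmb and Prf1, which are dim, are also highest there. Values under 1 are drawn at 1, and Prf1 and Eomes are each shown by the brighter probe set.

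Nkg7 (chr7:43437138-43438246) encodes a membrane protein of cytotoxic granules. Signals were 9.19, 20.2 and 12.4 in resistant tumors, 7.16, 1.16 and 2.14 in tumors and 91.2, 130.5 and 129 in normal thymus. Only the normal arrays reached the array median. Tumors were at least 6.61-fold lower than normal thymus (-5.46 ± 0.63 [-3.67, -6.36], limma adjusted p = 0.000116), and resistant tumors at least 5.57-fold lower (-3.13 ± 0.63 [-2.74, -3.39], limma adjusted p = 0.00309). Between the tumor groups every resistant array lay above every tumor array, by 2.34 ± 0.63 [0.93, 2.98], but both were dim and the difference was not called (limma adjusted p = 0.248). Without tumor 1 it was 3.06 and was called (adjusted p = 0.0330, over the alternatives 0.0330 to 0.804).

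Ctsw (chr19:5465043-5468628), cathepsin W, is a cysteine protease found in cytotoxic lymphocytes. It lay above the array median on all 9 arrays, with 43.3, 53.4 and 100.5 in resistant tumors, 38.2, 46.1 and 38.9 in tumors and 114, 131 and 175 in normal thymus. Tumors were 3.36-fold lower than normal thymus (-1.75 ± 0.30 [-1.57, -1.84], limma adjusted p = 0.00128). Resistant tumors were 2.24-fold lower (-1.16 ± 0.30 [-1.24, -0.59], limma adjusted p = 0.0112), and resistant tumor 3 came close to the lowest normal array. That call was lost with equal array medians (adjusted p = 0.12, the highest of the alternatives, the lowest being 0.000738) and without normal thymus 3 (adjusted p = 0.0514).

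Cst7 (chr2:150570415-150578944) encodes cystatin F, an inhibitor of the cathepsins that activate granule proteases. It reached the array median on 2 of 9 arrays only, so it was not among the genes tested. Its signal was 5.19, 4.52 and 12.5 in resistant tumors, 5.13, 5.16 and 5.16 in tumors and 25.4, 27.4 and 27.1 in normal thymus. In an unfiltered fit over every probe set it was lower in resistant tumors (-2.0 ± 0.45 [-2.39, -1.12], limma adjusted p = 0.0152) and in tumors (-2.37 ± 0.45 [-2.31, -2.40], limma adjusted p = 0.00704) than in normal thymus. Normal thymus 1 was also under its array median, so no fold is given.

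Ccl5 (chr11:83525778-83530518) encodes a chemokine that cytotoxic cells store and secrete and that draws other T cells. Signals were 25.1, 26.8 and 13.9 in resistant tumors, 17.0, 9.61 and 16.2 in tumors and 210.0, 313 and 358 in normal thymus. The lowest normal array was several times the highest tumor array of either kind. Only 2 of 3 resistant arrays and 1 of 3 tumor arrays reached the array median, and with the others set to it the folds are bounds. Resistant tumors were at least 13.1-fold lower than normal thymus (-3.76 ± 0.34 [-3.02, -4.58], limma adjusted p = 2.66e-05) and tumors at least 16.2-fold lower (-4.37 ± 0.34 [-3.63, -4.75], limma adjusted p = 1.06e-05). These calls held in all 19 alternatives that gave a test.

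Klrd1 (chr6:129588092-129598775) encodes CD94, the partner chain of NKG2 receptors on natural killer cells. It read 9.83, 9.45 and 4.05 in resistant tumors, 4.96, 1.37 and 3.38 in tumors and 49.7, 82.6 and 66.4 in normal thymus. Again only the normal arrays reached the array median. Resistant tumors were at least 3.13-fold lower than normal thymus (-3.17 ± 0.61 [-2.37, -4.19], limma adjusted p = 0.00242) and tumors at least 3.71-fold lower (-4.51 ± 0.61 [-3.32, -5.10], limma adjusted p = 0.000303).

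The T-box factor genes were dim throughout. Tbx21 (chr11:97098007-97115331) read 11.9, 7.48 and 0.535 in resistant tumors, 16.4, 27.2 and 16.7 in tumors and 37.1, 25.4 and 28.1 in normal thymus. Resistant arrays lay below all others, and tumor and normal arrays overlapped. Resistant tumors were at least 1.44-fold below normal thymus (-2.74 ± 0.80 [-1.98, -4.74], limma adjusted p = 0.0202), a call lost without normal thymus 1 (adjusted p = 0.0595, the highest of the alternatives, the lowest being 0.00184) or normal thymus 3 (adjusted p = 0.0526). Tumors differed from normal thymus by -0.61 ± 0.80, which was not called (limma adjusted p = 0.583). Resistant tumors differed from tumors by -2.13 ± 0.80 [-0.80, -4.41], also not called (limma adjusted p = 0.553), with resistant tumor 3 at a signal under 1. All 3 resistant arrays were below their array medians. With them set to those medians, they were no longer lower than tumors on average. Both probe sets of Eomes (chr9:118478186-118486132) stayed under the array median everywhere. The brighter one read 7.73, 15.9 and 11.9 in resistant tumors, 10.9, 6.14 and 5.15 in tumors and 13.3, 9.39 and 5.66 in normal thymus, and the groups overlapped. The other probe set stayed at or under 5.15 on all 9 arrays.

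Between resistant tumors and tumors none of the 8 tested genes was called by limma, where 0.129% of all genes were called higher and 0.231% lower. At an unadjusted p under 0.05 the count was 3 of 8, where 7.23% of all genes reached it. Gzma and Nkg7 were higher in resistant tumors without overlap, where 4.41% of all genes were, and Tbx21 was lower without overlap, where 6.01% were. For Nkg7 and Tbx21 every resistant array was below its array median, so their levels there are only bounded. The groups overlapped in the other 5 tested genes, all with adjusted p of 0.689 or above. Their differences were 0.30 [0.14, -0.22] for Prf1, 0.68 [-0.46, 1.69] for Gzmb, 0.59 [0.33, 1.25] for Ctsw, 0.61 [0.61, 0.16] for Ccl5 and 1.34 [0.96, 0.91] for Klrd1. Those of Prf1 and Gzmb had opposite signs within the 2 spike-in sets, where tumor 1 alone and resistant tumor 3 alone stand for their groups. Two-sided exact permutation tests of 3 arrays against 3 cannot give a p below 0.1. They give that value only where the groups do not overlap, so they add nothing to the overlaps already described.

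**Figure D2:**
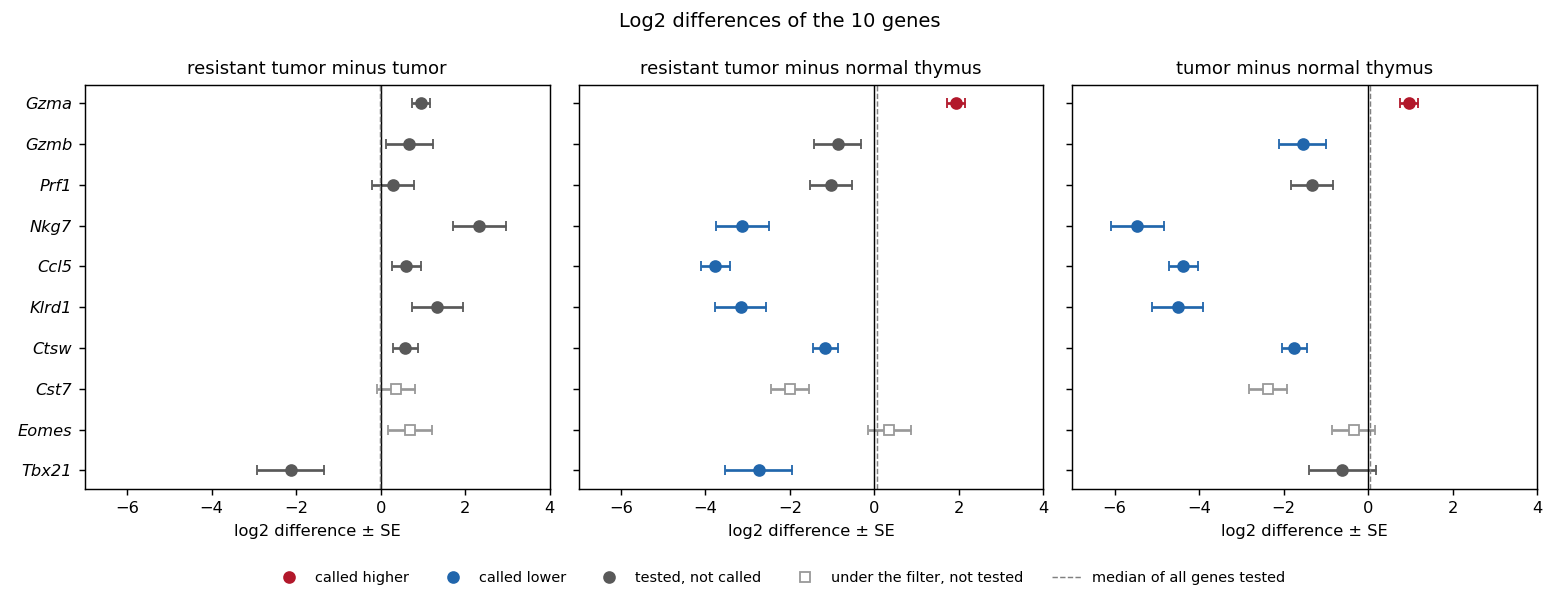
Log2 differences with standard errors for the 10 genes in the comparisons of resistant tumor with tumor, resistant tumor with normal thymus and tumor with normal thymus. Red and blue points were called higher and lower, grey points were tested and not called, and open squares did not pass the filter (their errors come from the fit without it). The dashed line is the median of all genes tested. Gzma is the only point called higher in either comparison with normal thymus, and no point is called between resistant tumors and tumors.

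The median difference over the 8 tested genes was -1.95 in resistant tumors and -1.65 in tumors against normal thymus, beside medians of 0.06 and 0.05 over all genes tested. Between resistant tumors and tumors it was 0.65, beside -0.02 over all genes. As 3 of the 8 passed the filter through the normal arrays alone, which favours lower values, these medians describe the 8 genes only.

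The sequence just before the start of transcription was read for 7 of the 10 genes from RefSeq (assembly GRCm38.p6, 250 bases before the start and 50 from it on). Klrd1, Ccl5 and Ctsw had no entry. Windows were searched on both strands for the RUNX letters TGTGGT, the T-box half-site GGTGTG, the AP-1 letters TGANTCA and the STAT letters TTCNNNGAA. The 3 windows below set Gzma, which was called higher in both tumor groups, beside Gzmb and Nkg7, which were on the lower side of normal thymus. They run 5′ to 3′ along the gene, and capitals mark the matches, with ACCACA as TGTGGT on the other strand.
Gzma, chr13:113100932-113101231, minus strand: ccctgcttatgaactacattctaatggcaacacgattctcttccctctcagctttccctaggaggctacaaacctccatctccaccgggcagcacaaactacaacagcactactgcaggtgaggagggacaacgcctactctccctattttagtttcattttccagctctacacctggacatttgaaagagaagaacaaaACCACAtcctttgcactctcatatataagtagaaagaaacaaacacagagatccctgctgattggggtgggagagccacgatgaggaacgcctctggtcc
Gzmb, chr14:56262285-56262584, minus strand: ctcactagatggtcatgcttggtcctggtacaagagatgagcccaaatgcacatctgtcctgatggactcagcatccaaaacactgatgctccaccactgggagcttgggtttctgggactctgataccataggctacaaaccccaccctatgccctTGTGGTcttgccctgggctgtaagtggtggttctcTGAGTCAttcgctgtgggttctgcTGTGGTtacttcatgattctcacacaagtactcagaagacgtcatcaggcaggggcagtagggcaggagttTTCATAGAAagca
Nkg7, chr7:43436888-43437187, plus strand: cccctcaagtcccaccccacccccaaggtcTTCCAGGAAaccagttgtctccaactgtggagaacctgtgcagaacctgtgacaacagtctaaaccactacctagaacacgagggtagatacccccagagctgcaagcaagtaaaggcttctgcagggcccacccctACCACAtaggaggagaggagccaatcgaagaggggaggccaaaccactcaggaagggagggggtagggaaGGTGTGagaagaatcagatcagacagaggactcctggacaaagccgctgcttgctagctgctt
Gzma held a single RUNX match, 50 bases before the start. Gzmb held 2 RUNX matches, 1 AP-1 match and 1 STAT match, the last of them after the start. Nkg7 held 1 RUNX, 1 T-box and 1 STAT match, and no match overlapped another. Over the 7 genes the RUNX letters were in 5 windows (Gzma, Gzmb, Prf1, Nkg7 and Cst7), and in 16.8% of all 32851 windows of the same length. The T-box half-site was in 1 of 7 windows, against 19.0% of all, the AP-1 letters in 2 (Gzmb and Cst7), against 7.8%, and the STAT letters in 2, against 8.3%. The windows of Eomes and Tbx21 held none of the 4. The RUNX letters thus stood both before Gzma and before genes on the lower side.

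Genes around the programme were read from 14 lists. Of their 121 tested genes 66 were called in resistant tumors against normal thymus, 6 higher and 60 lower, and 73 in tumors against normal thymus, 3 higher and 70 lower. Of all genes 23.1% were higher and 20.2% lower in resistant tumors, and 23.3% higher and 19.1% lower in tumors, and the counts of each list stand beside these shares. Some of these genes, too, passed the filter only through the group where they were high.

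Of the 8 other granzyme genes only Gzmm passed the filter. Its signal was 52.0, 39.3 and 12.5 in resistant tumors, 37.2, 18.0 and 14.1 in tumors and 27.8, 7.42 and 10.2 in normal thymus, and the groups overlapped. The difference between resistant tumors and normal thymus was 1.2 ± 0.66 (limma adjusted p = 0.175). The other 7, Gzmc to Gzmg, Gzmk and Gzmn, never exceeded a signal of 17.2 on any array.

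In the list of granule storage, granule release and death ligand genes 3 of 11 tested genes fell in resistant tumors and 3 in tumors against normal thymus, and none rose (medians -0.39 and -0.36), which is close to the share of all genes that fell. Ltb, which encodes lymphotoxin beta, differed by -4.66 ± 0.39 in resistant tumors (limma adjusted p = 1.75e-05) and by -4.85 ± 0.39 in tumors (limma adjusted p = 1.36e-05). Stx11, which encodes a syntaxin needed for granule fusion, was 10.8, 12.6 and 16.9 in resistant tumors, 15.4, 7.29 and 16.0 in tumors and 100.1, 73.8 and 63.7 in normal thymus. In each tumor group 1 of 3 arrays reached the array median. It was at least 3.65-fold lower in resistant tumors (limma adjusted p = 0.000525) and at least 4.4-fold lower in tumors (limma adjusted p = 0.000388). Lyst, which acts in lysosome traffic, was lower in resistant tumors by -0.73 ± 0.13 (limma adjusted p = 0.00136) and was not called in tumors. It was also lower in resistant tumors than in tumors without overlap, at 284, 355 and 368 in resistant tumors and 489, 556 and 519 in tumors. That difference of -0.64 ± 0.13 was not called (limma adjusted p = 0.0976), but was with a block for the spike-in set (adjusted p = 0.023) and in 2 of 19 alternatives in all (0.0172 to 0.886).

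Rab27a, which encodes the small GTPase that docks granules at the membrane, was called between the tumor groups. Its signal was 340, 277 and 320 in resistant tumors, 172, 148 and 160 in tumors and 283, 268 and 249 in normal thymus. Tumor arrays lay below all others, and resistant and normal arrays overlapped. Resistant tumors were 1.94-fold above tumors (0.96 ± 0.12, limma adjusted p = 0.0127), with the call kept in 15 of 19 alternatives (adjusted p 0.00378 to 0.846) and lost, among others, without tumor 2 (adjusted p = 0.0909) or tumor 3 (adjusted p = 0.0717). Tumors were 1.66-fold below normal thymus (-0.73 ± 0.12, limma adjusted p = 0.00112).

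Among 6 tested genes for inhibitors of granule enzymes 3 fell in resistant tumors and 4 in tumors (medians -0.82 and -0.79). Serpinb9, an inhibitor of granzyme B, was 72.3, 54.4 and 47.6 in resistant tumors, 55.1, 44.4 and 53.7 in tumors and 83.5, 107 and 103 in normal thymus. It was 1.70-fold lower in resistant tumors (limma adjusted p = 0.0123), a call lost without normal thymus 2 or 3 (adjusted p = 0.0567 and 0.0516), and 1.91-fold lower in tumors (limma adjusted p = 0.0044). The cystatins Cst3 and Cstb, which inhibit cathepsins in many cell types, were lower by -1.41 ± 0.27 and -0.86 ± 0.10 in resistant tumors and by -1.30 ± 0.27 and -1.09 ± 0.10 in tumors. Serpinb6b was lower in tumors (-0.64 ± 0.16, limma adjusted p = 0.011), but not without normal thymus 2 (adjusted p = 0.0505).

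Natural killer cell receptors were mostly too dim to test. Of 21 with a probe set, 15 did not pass the filter, Klrc1, Klrk1, Klre1, Ncr1, Klra7 and Klra8 among them, and the highest signal of those 15 on any array was 34.4. Of the 6 that passed, Hcst, the adaptor of the NKG2D receptor, fell by -1.69 ± 0.17 in resistant tumors and by -1.68 ± 0.17 in tumors (limma adjusted p = 5.56e-05 and 5.62e-05). Its signal was 37.2 to 45.9 in resistant tumors, 38.0 to 47.8 in tumors and 122 to 146 in normal thymus. The remaining 5, including Tyrobp and Fcer1g, which myeloid cells share, were not called (list medians 0.11 and -0.68).

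Of 11 tested genes for chemokines, cytokines and receptors that act on cytotoxic cells, 5 fell in resistant tumors and 6 in tumors, and none rose (medians -1.07 and -2.43). Il21r, the receptor for interleukin 21, read 16.0, 11.7 and 16.5 in resistant tumors, 12.5, 12 and 10.8 in tumors and 276, 443 and 432 in normal thymus. Of the resistant arrays 1 reached the array median, and of the tumor arrays none. It was at least 17.8-fold lower in resistant tumors (limma adjusted p = 1.52e-06) and at least 21.5-fold lower in tumors (limma adjusted p = 8.9e-07). Il2rb, the chain that receptors for interleukins 2 and 15 share, was at least 1.6-fold lower in resistant tumors and at least 1.90-fold lower in tumors, with signals of 1.76, 2.99 and 14.9 in resistant tumors, 1.27, 0.857 and 0.859 in tumors and 40.9, 34.5 and 25.9 in normal thymus. The call in resistant tumors (limma adjusted p = 0.0258) was lost without resistant tumor 1 or 2 or any 1 normal array (adjusted p 0.0622 to 0.0867). Il18r1 was at least 1.96-fold lower in resistant tumors (limma adjusted p = 0.0134, or 0.0517 without normal thymus 2) and at least 2.33-fold lower in tumors. Il15 was at least 1.24-fold lower in resistant tumors (limma adjusted p = 0.0142, or 0.0553 without normal thymus 1), and Cxcr6, a chemokine receptor, was at least 1.48-fold lower in tumors (limma adjusted p = 0.00834).

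Transcription factors of cytotoxic programmes moved in both directions. Of 15 tested, 4 rose and 6 fell in resistant tumors, and 2 rose and 5 fell in tumors (medians -0.31 and -0.27). Nfil3, which the mouse needs to form natural killer cells and which many other cells use, was at least 4.70-fold higher in resistant tumors (limma adjusted p = 0.000297) and at least 3.60-fold higher in tumors (limma adjusted p = 0.000591). Its signal was 47.3, 119 and 145 in resistant tumors, 51.1, 76.8 and 93.1 in tumors and 13.9, 7.70 and 6.41 in normal thymus. Runx1, a factor of T cell development, rose by 1.48 ± 0.16 in resistant tumors and by 1.80 ± 0.16 in tumors. Bcl6, a repressor, was lower by -3.39 ± 0.16 in resistant tumors and by -3.85 ± 0.16 in tumors. Irf8, a factor of myeloid and B cells as well, was lower by -1.68 ± 0.26 in resistant tumors and by -2.02 ± 0.26 in tumors.

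Stat4, which carries the interleukin 12 signal, split the resistant group. It read 0.610, 0.953 and 56.3 in resistant tumors, 33.7, 38.4 and 45.7 in tumors and 96.4, 131 and 108 in normal thymus. Resistant tumors 1 and 2 were near 0, while resistant tumor 3 lay above every tumor array. That array is the resistant one with spike-in signal, and its ratio of the Actb 3′ to 5′ probe sets, a sign of RNA integrity, was 2.64, against 1.96 and 1.98 on the other resistant arrays. The ratio was 1.915, 3.157 and 1.911 in tumors 1, 2 and 3, and 1.631, 1.906 and 1.915 in normal thymus 1, 2 and 3. The part of RNA integrity or spike-in set in the split was not tested. Against normal thymus resistant tumors were at least 3.49-fold lower (-4.86 ± 1.27, limma adjusted p = 0.0123). Against tumors the difference was -3.35 ± 1.27 and was not called (limma adjusted p = 0.56), but without resistant tumor 3 it was -5.28 and was called (adjusted p = 9.1e-05, the lowest of the alternatives, the highest being 1). In that fit both resistant values are the floor of 1, without spread, so its size and p follow from the floor. Against their array medians resistant tumors 1 and 2 were at least 1.63-fold below the tumors.

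Runx3 and Id2, which act in cytotoxic cells, are added here after their values were seen. Runx3 read 105, 124 and 296 in resistant tumors, 65.5, 95.9 and 118 in tumors and 56.2, 78.8 and 91.6 in normal thymus. Resistant tumors exceeded normal thymus by 1.08 ± 0.38 (limma adjusted p = 0.0447), a call kept in 8 of 19 alternatives (adjusted p 0.000156 to 0.292) and lost without any 1 normal array, tumor 2 or 3 or resistant tumor 2 or 3 (0.0528 to 0.134, and a difference of 0.62 without resistant tumor 3). Id2 read 504, 594 and 534 in resistant tumors, 518, 249 and 306 in tumors and 294, 261 and 252 in normal thymus. Resistant tumors exceeded normal thymus by 1.01 ± 0.23 (limma adjusted p = 0.00589), and the call held in all 19 alternatives.

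**Figure D3:**
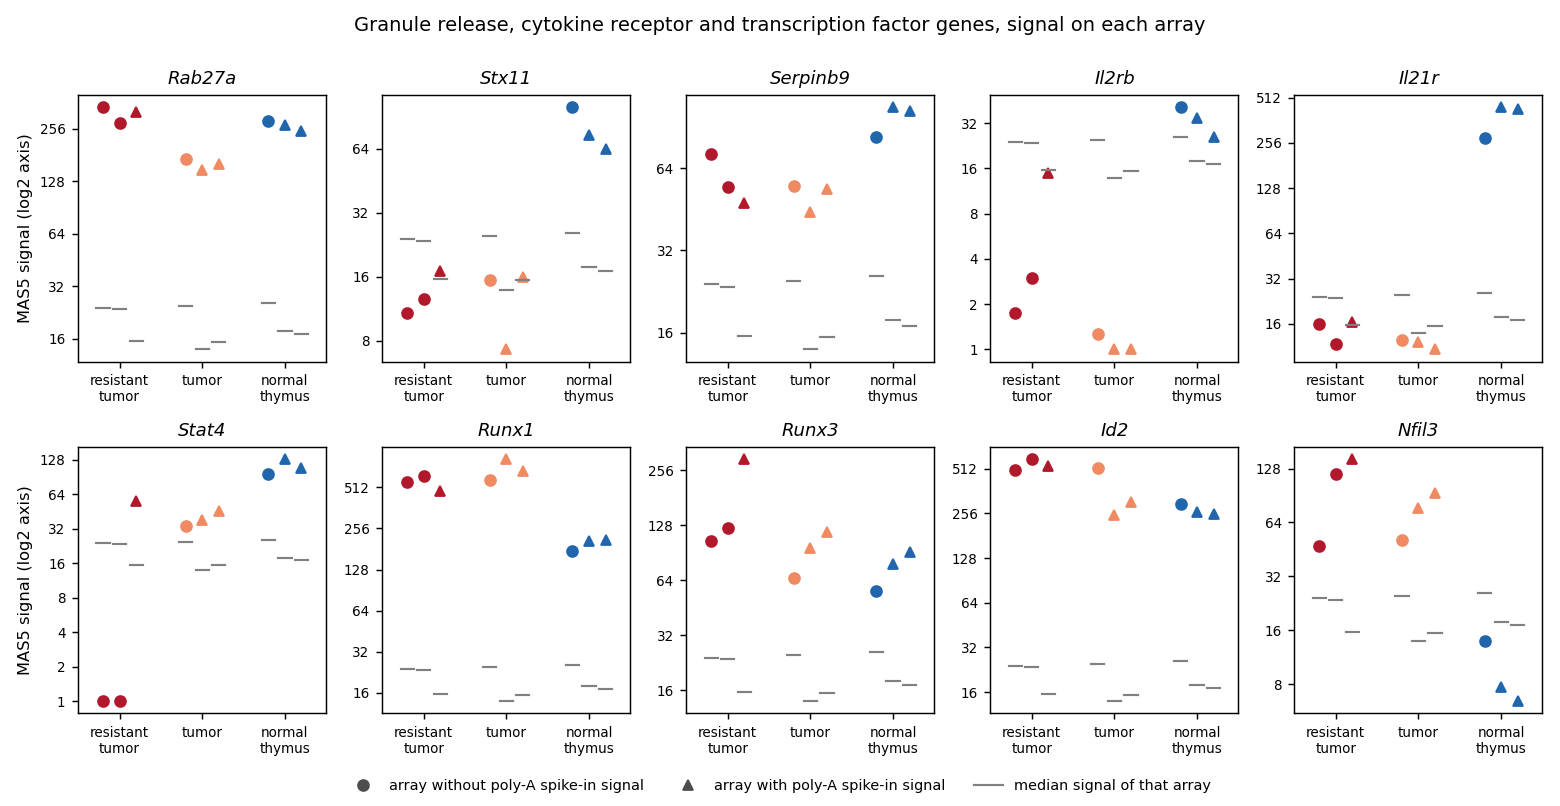
MAS5 signal (log2 axis) on each of the 9 arrays for 10 genes of granule release, inhibition, cytokine reception and transcription, by group. Circles are arrays without and triangles arrays with poly-A spike-in signal, and grey bars mark that array's median. Rab27a is lowest in tumors, Stx11, Serpinb9, Il2rb and Il21r are highest in normal thymus, Nfil3 and Runx1 are lowest in normal thymus, and Stat4 is near 0 in 2 of 3 resistant tumors. Values under 1 are drawn at 1.

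Innate-like and gamma-delta T cells can also carry cytotoxic genes. Of 9 tested markers of these cells, 6 fell in resistant tumors and 8 in tumors against normal thymus (medians -1.56 and -1.97). Which cells of the normal thymus carried these signals was not tested. In resistant tumors Trgv4, Blk and Sox13 were not called. Slamf1 was at least 12.5-fold lower in resistant tumors and at least 16.7-fold lower in tumors. Cd163l1 was at least 4.24-fold lower in resistant tumors and at least 5.03-fold lower in tumors, and Blk was at least 3.30-fold lower in tumors. Trgv4, a gamma chain segment of the T cell receptor read by a probe set that may match related segments, was 333, 114 and 693 in resistant tumors, 24.8, 7.80 and 21.5 in tumors and 437, 420 and 413 in normal thymus. It was higher in resistant tumors than in tumors by 4.21 ± 0.60 (limma adjusted p = 0.0213, called in 11 of 19 alternatives with adjusted p 0.00176 to 0.12, and lost without tumor 2 or 3, resistant tumor 1 or any 1 normal array, at 0.0501 to 0.12), in the comparison in which Gzma and Nkg7 did not overlap. Only 1 of 3 tumor arrays reached the array median for Trgv4, so its level in tumors is only bounded and the size of this difference depends on low signals. With 50 added before the log it was 2.41. The part of Trgv4-bearing cells in the Gzma signal was not tested.

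Markers of other cell types differed from list to list. Summed signals add different probe sets and give more weight to the brighter ones. Neither a sum nor a gene's share of it is an amount of RNA. Summed signals of 12 thymic epithelial markers were 225 to 322 in resistant tumors, 159 to 458 in tumors and 7532 to 7992 in normal thymus, with 10 of 12 called lower in each tumor group and 1 higher in resistant tumors. Those of 9 dendritic cell markers were 136 to 163 in resistant tumors, 72.4 to 171 in tumors and 3258 to 3541 in normal thymus, with 6 called lower in resistant tumors and 8 in tumors. Ccr9, which thymocytes also carry, made up 79.2% to 80.4% of the normal sums, and the other 8 markers summed to 86.7 to 146 in resistant tumors, 61.3 to 148 in tumors and 669.6 to 717 in normal thymus. For 15 T cell and thymocyte markers the sums were 12770 to 15310 in resistant tumors, 14525 to 15260 in tumors and 21703 to 23633 in normal thymus, with 11 lower and 1 higher, Ptcra, in each tumor group. No tested marker of these lists was under a signal of 1 on all 3 arrays of a group. Psmb11, Pax1, Cd2, Cd8a and Cd8b1, among others, were nevertheless below the array median on every array of both tumor groups. Their levels there are only bounded, and the values do not show whether any such RNA remained. The part of these cell types in the lower signals of Nkg7, Ccl5, Klrd1 and Ctsw was not tested.

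For B cells (6 tested) the sums were 692 to 985 in resistant tumors, 1543 to 1642 in tumors and 2470 to 2972 in normal thymus, with 2 markers called lower in resistant tumors and 5 in tumors. Ighm made up 88.2% to 90.9% of the normal sums, and the other 5 markers summed to 99.8 to 115 in resistant tumors, 60.7 to 121 in tumors and 271 to 291 in normal thymus. Ighm was also lower in resistant tumors than in tumors (-1.0 ± 0.15, limma adjusted p = 0.0307, called in 8 of 19 alternatives with adjusted p 0.00407 to 0.932, and lost without any 1 tumor, any 1 normal array or resistant tumor 1, at 0.0521 to 0.178). For neutrophils (7 tested) they were 57.1 to 89.3 in resistant tumors, 37.5 to 187 in tumors and 841 to 1015 in normal thymus, with 4 called lower in resistant tumors and 6 in tumors. Macrophage and myeloid markers (11 tested) summed to 1739 to 3247 in resistant tumors, 1645 to 2763 in tumors and 2651 to 3174 in normal thymus, so the groups overlapped, and 2 of 11, Mertk and Mpeg1, were lower in each. Of the 9 mast cell and basophil genes, some of which encode granule proteases, 2 were tested and Cpa3 was lower in both tumor groups, at least 2.67-fold in resistant tumors and at least 3.17-fold in tumors. The call in resistant tumors (limma adjusted p = 0.0426) was lost without any 1 normal array, resistant tumor 2 or 3 or tumor 3 (0.058 to 0.114). Summed signals of the 2 were 76.4 to 189.8 in resistant tumors, 30.7 to 67.4 in tumors and 105 to 121 in normal thymus. The other tested gene, Kit, made up most of the resistant sums, at 57.6 to 185 in resistant tumors. Kit was at 29.6 to 51.9 in tumors and 52.1 to 65.4 in normal thymus, and was not called in any comparison. Cpa3 alone was at 4.71 to 18.8 in resistant tumors, 1.09 to 15.5 in tumors and 52.5 to 58.4 in normal thymus.

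**Figure D4:**
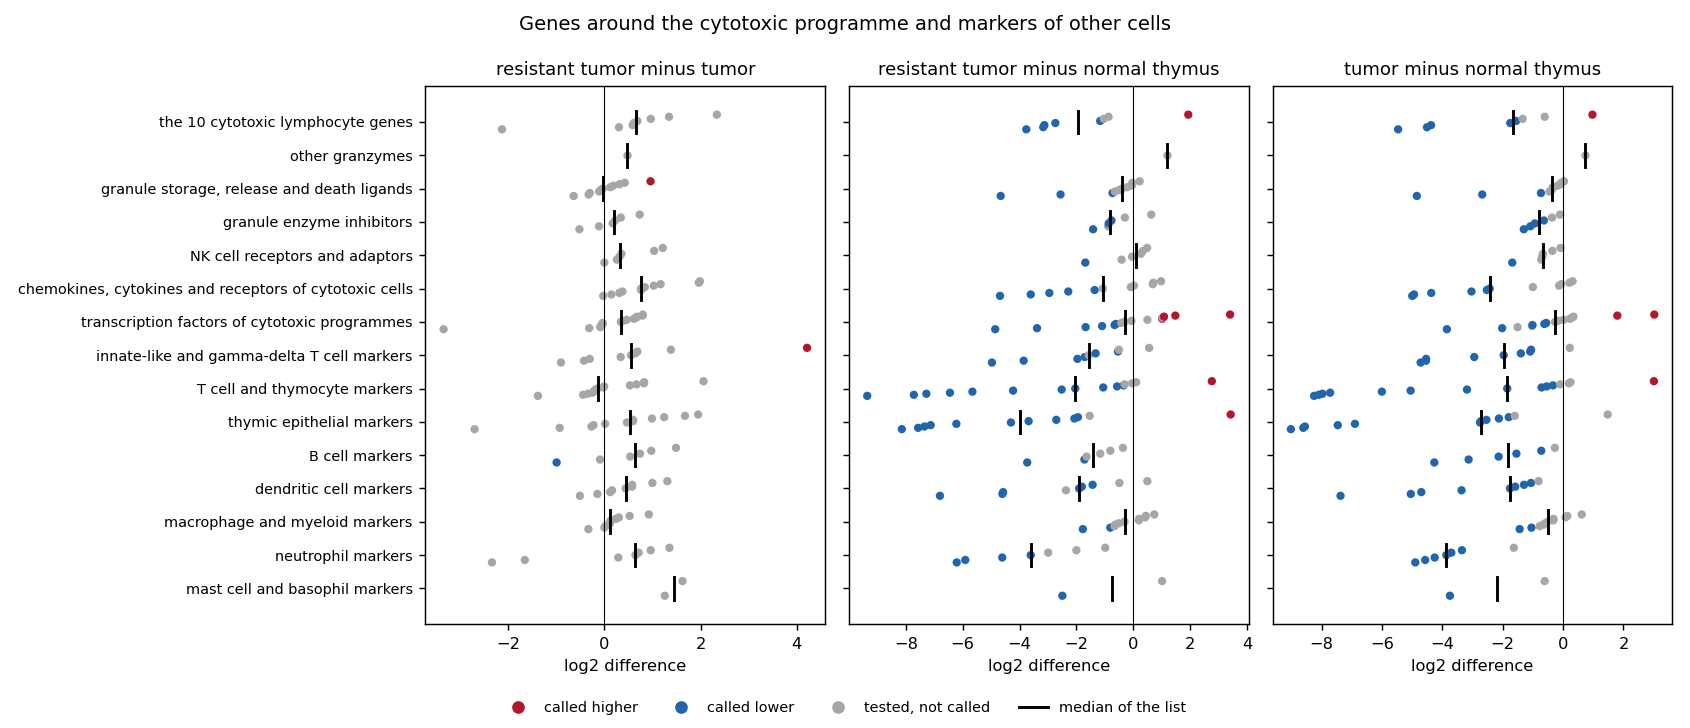
Log2 differences of the tested genes of each list in the comparisons of resistant tumor with tumor, resistant tumor with normal thymus and tumor with normal thymus. Each point is 1 gene, red and blue points were called higher and lower, grey points were not called, and black bars are list medians. Most called points against normal thymus are lower, and 3 genes of these lists, Rab27a, Trgv4 and Ighm, are called between resistant tumors and tumors.

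Over all 9 arrays the genes whose log2 signals followed each member most closely differed between members. Pearson correlations with Gzma were 0.98 for Ncf4 and 0.97 for Vim. With Ccl5 they were 0.996 for Gimap9 and 0.993 for Fmnl2, and with Nkg7 0.99 for Tmprss2 and 0.98 for Tespa1. These are descriptions over arrays that fall into 3 groups and 2 spike-in sets, which by themselves give high values.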

How the data were processed

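Total RNA labelled with biotin was hybridised to Affymetrix Mouse430_2 arrays, per the labels' protocols. The deposited table holds 1 linear intensity per probe set and array, computed by the authors with MAS5, as the submitters' processing notes name it. Its version and scaling, and any detection calls, are not known here. Every column of the table was mapped to a sample. A floor of 1 was applied before log2. Probe sets with 1 symbol in the platform's gene table that reached the array median on at least 3 of 9 arrays were kept, and the brightest stood for its gene. One limma 3.58.1 model with a mean per group (R 4.3.3, 6 residual degrees of freedom, intensity trend) was fitted to all arrays, with two-sided contrasts and Benjamini-Hochberg adjustment over 11671 genes. The script was tested on simulated data. Figures used matplotlib 3.10.9 under Python 3.11.15.

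The 10 genes and the 14 lists were chosen with earlier results of these data known. All 10 are named, with up to 4 called genes of largest difference per list and comparison, or up to 2 tested genes where none was called. Some further genes, such as those of the T cell receptor complex, Ptcra, Runx3 and Id2, are named outside this rule. For a group with an array under its median the bound takes, on each array, the larger of the array median and the measured signal, averaged in log2. Arrays fell into 2 sets by spike-in signal, each with all groups, so differences were also fitted with the set as a block and computed within sets. On tumor 1 the 64 control rows were ordered differently and were sorted by row name before the spike-in signal was read. Their correlation with the other arrays was -0.29 as deposited and 0.91 after sorting. The control rows were not tested themselves, but the spike-in sets come from them. The place of tumor 1 in its set, the bracketed values and the fits with that block thus rest on the sorting. Alternatives were quantile normalization, equal array medians, 50 added before the log, a floor of 10, no filter, a filter at the 75th percentile, no trend, the mean over probe sets, both blocks, and leaving out each array. No individual array is weighted, and the number of arrays limits the precision.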

Additional observations from a re-analysis of the deposited data

How the results depend on the processing

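Of the 10 genes, 6 were called in each comparison with normal thymus. The filter at the 75th percentile left only 3 of them to test, Gzma, Ccl5 and Ctsw, and all 3 were called in each. Leaving out 1 array gave 4 to 6 for resistant tumors and 5 to 7 for tumors. Between resistant tumors and tumors no gene was called in the fit as reported, 1 with a block for the spike-in set, 1 with the replicate block (Gzma in both), and 0 to 1 when 1 array was left out (Nkg7, without tumor 1). The difference of Prf1 between the tumor groups, never called, turned to -0.0266 under quantile normalization and, without 1 array, ranged from -0.0073 (without resistant tumor 2) to 0.6986 (without resistant tumor 3).

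Of the 121 genes of the other lists 73 were called in tumors (61 to 76 without 1 array), and 46 with the stricter filter, which tests fewer of them. In resistant tumors 66 were called (56 to 74 without 1 array). Between the tumor groups 3 were called, but 1 with equal medians, 1 without the filter, 1 without the trend, 1 with the mean over probe sets, 6 with a block for the spike-in set, 5 with the replicate block and 0 to 5 without 1 array.

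Whether replicate numbers pair the arrays cannot be told, because the numbers run with the spike-in sets. All arrays numbered 1 were without and all numbered 3 with spike-in signal, and of those numbered 2 only resistant tumor 2 was without it. Same-numbered arrays correlated at 0.41 to 0.65 for numbers 1 and 3 but from -0.34 to 0.37 for number 2. With the replicate block Gzma was called between the tumor groups (0.96, adjusted p = 0.0152). Between arrays of different groups, deviations from the group means correlated at 0.36 to 0.65 within a spike-in set, and at -0.74 to -0.30 across sets. Deviations cancel out within each group, so the second range is not separate from the first. Over all genes the block by spike-in set raised the calls in tumors to 6854, beside 4943, in resistant tumors to 6862, beside 5049, and between them to 143, beside 42. Equal array medians moved the median of all genes from 0.05 to 0.24 in tumors against normal thymus and left 2287 calls, and 2034 in resistant tumors. Causes were not tested. Low signals limit what Gzmb, Prf1, Cst7, Eomes and Tbx21 can show.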
